A study of Mus musculus with 17 samples.

Results

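The Hox cluster genes are the homeobox genes of the HoxA, HoxB, HoxC and HoxD clusters, which lie on mouse chromosomes 6, 11, 15 and 2. They were taken as every symbol made of Hox, a cluster letter and a paralog number in the array's annotation, each read from its probe set with the highest mean. This gave 37 genes of the 19938 tested, with 10 in HoxA and 9 in each other cluster. The arrays measured RNA of the 3134 mouse mammary epithelial cell line 48 h after plating, on 17 arrays in 8 groups. All 4 lines carry the tetracycline-regulated transactivator, are kept in 5 µg/ml tetracycline, and were plated in medium with charcoal-dextran-treated serum. The control line carries the transactivator alone, and each of the others also carries 1 stably integrated, Flag-tagged dominant-negative remodeller, of Brg1 (dnBrg1), of Chd4 (dnChd4) or of Snf2h (dnSnf2h). Brg1, Chd4 and Snf2h are the ATPases of the SWI/SNF, NuRD and ISWI chromatin remodelling complexes. In the repressed groups tetracycline stayed in the medium, and in the induced groups it was withdrawn, so that the transactivator and any dominant-negative protein were expressed. There were 2 arrays per group, except 3 for the induced control. With 1 line per construct, the construct and the line that carries it cannot be told apart, and the number of clones behind each line is not given in the sources used here. The labels do not say whether replicates were separate cultures, so p-values measure the spread between these arrays, which may be technical.

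Hox genes encode homeodomain transcription factors that give positions along the body axis and in the limbs their identity. Within a cluster the genes lie in the order of their paralog numbers, from the 3′ end with low numbers to the 5′ end with high numbers, and low-numbered genes are expressed earlier and nearer the head. Polycomb complexes keep silent Hox genes repressed, trithorax-group complexes, with SWI/SNF among them, oppose this, and PBX, MEIS and PKNOX proteins bind DNA together with Hox proteins. In the mammary gland, Hoxc6 and the paralogs Hoxa9, Hoxb9 and Hoxd9 are known for roles in gland growth.

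The 5 control arrays fell into sets that cross their labels, which bears on each comparison with the control line. Over all genes, the array labelled control repressed replicate 1 correlated at 0.995 with the arrays labelled control induced replicates 2 and 3, and at 0.975 with the other array labelled control repressed. The array labelled control induced replicate 1 correlated at 0.994 with the array labelled control repressed replicate 2, and at 0.977 with each of the other arrays labelled control induced. Which labels or arrays depart cannot be told from these values, so each result is given from all 17 arrays and, where it differs, from 15 arrays without those 2 replicates numbered 1, or from the 12 arrays of the dominant-negative lines. The Chd4 probe set was higher by 1.82 ± 0.12 (log2, ± SE) in induced than in repressed dnChd4 cells (adjusted p = 1.56e-05, limma), while Smarca4 (Brg1) in dnBrg1 and Smarca5 (Snf2h) in dnSnf2h differed by 0.12 and -0.24 and did not pass (adjusted p = 0.772 and 0.482). Whether these probe sets read the introduced forms is not given in the sources used here. Of 10 epithelial markers, 7 had a mean of 5 or more, and the list ran from 4.12 for Epcam to 6.29 for Krt8, with Cdh1 at 5.19. The defining epithelial marker Epcam was thus dim. Of 13 mesenchymal markers 12 had a mean of 5 or more, from 3.95 for Dcn to 12.71 for Vim. The summed level of the epithelial list, as its mean over genes, ran from 5.11 to 5.32 over the 8 groups, and that of the mesenchymal list from 8.29 to 8.95.

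Each of the 4 clusters held members with a mean signal of 5 or more, and the highest means were those of Hoxb9, Hoxc9, Hoxc13 and Hoxc11. Levels are the deposited log2 signals, and a mean under 5 over all arrays is called dim here. Array medians were 5.48 to 5.63, and the median of the Hox means was 5.56. A mean of 5 or more thus does not by itself show expression. In HoxD the highest member, Hoxd3, was at percentile 49.3 of all genes. Of the 37 genes, 27 had a mean of 5 or more: 7 of 10 in HoxA, 8 of 9 in HoxB, 7 of 9 in HoxC and 5 of 9 in HoxD. The cluster medians were 5.66 for HoxA, 6.20 for HoxB, 5.56 for HoxC and 5.04 for HoxD. Hoxa3, Hoxd10 and Hoxc12 lay just inside the bound at 5.01, 5.04 and 5.05, and Hoxc10 just outside it at 4.90. The 10 dim genes were Hoxa2, Hoxa11, Hoxa13, Hoxb2, Hoxc4, Hoxc10, Hoxd1, Hoxd8, Hoxd12 and Hoxd13. A probe set's signal depends on its own probes as well as on its transcript, so the order of genes describes these signals and not transcript numbers. RefSeq spans of Hoxa3 overlap those of Hoxa4, Hoxa5 and Hoxa6, and the pairs Hoxb3 and Hoxb4, Hoxd3 and Hoxd4, and Hoxd10 and Hoxd11 overlap too, so signal of these genes may be shared.

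Hoxb9, a thoracic-level gene, had the highest mean of all members at 8.58 ± 0.12 (log2; SD within groups, 17 arrays), at percentile 83.5 of the 19938 genes. In the control line it read 8.49 and 8.58 repressed and 8.66, 8.43 and 8.27 induced, and its values were 8.49 and 8.61 repressed and 8.67 and 8.79 induced in dnBrg1, 8.57 and 8.76 repressed and 8.69 and 8.63 induced in dnChd4, and 8.68 and 8.58 repressed and 8.50 and 8.49 induced in dnSnf2h. The lines overlapped, and no comparison of Hoxb9 passed in the 17-array fit or in either smaller one. Next in order came Hoxc9 at 7.49 ± 0.15, Hoxc13 at 7.21 ± 0.17, Hoxc11 at 6.70 ± 0.12, Hoxb6 at 6.66 ± 0.19, Hoxa4 at 6.62 ± 0.20 and Hoxb4 at 6.58 ± 0.21. Hoxb9 and Hoxc9 stood apart by more than their spread, whereas the means from Hoxc11 to Hoxb4 lay within 1 spread of each other. Hoxd3, which takes part in shaping the upper neck vertebrae, led HoxD at 5.88 ± 0.17. The control line had 5.88 and 6.26 repressed and 5.94, 5.74 and 6.10 induced for Hoxd3, and the other lines 5.98 and 5.74 repressed and 5.90 and 5.86 induced in dnBrg1, 5.86 and 5.78 repressed and 5.74 and 5.91 induced in dnChd4, and 5.79 and 5.78 repressed and 6.07 and 5.67 induced in dnSnf2h. All lines overlapped, and Hoxd3 passed in no comparison of these fits. At the dim end, Hoxa11, a gene of the uterus, kidney and forearm, had the lowest mean at 3.85 ± 0.11, and Hoxa2, a hindbrain gene, read 3.86 ± 0.06. By paralog group, group 9 held the widest gap, from 5.39 for Hoxd9 to 8.58 for Hoxb9, and group 6 the narrowest of the groups with over 2 measured members, from 5.93 for Hoxa6 to 6.66 for Hoxb6.

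**Figure D1:**
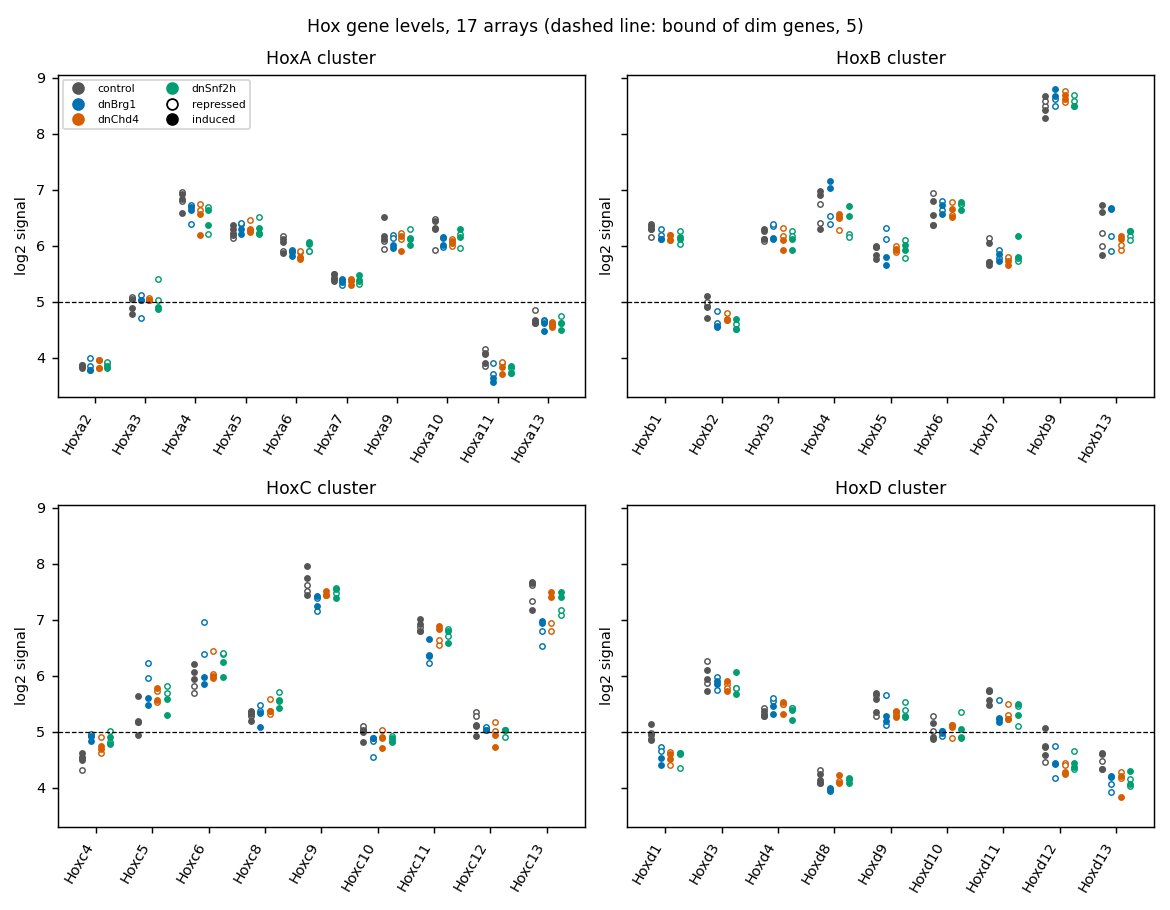
Log2 signal of each of the 37 Hox genes on each of the 17 arrays, 1 panel per cluster with genes in paralog order; colours mark the line, open points repressed and filled points induced arrays, and the dashed line the bound of 5. Hoxb9 lies above every other member on each array, and the HoxC panel shows control points below the other lines at Hoxc4 and above those of dnBrg1 at Hoxc9, Hoxc11 and Hoxc13.

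Of the 9 HoxC genes, Hoxc4, Hoxc5 and Hoxc6 at the 3′ end were higher and Hoxc9, Hoxc11 and Hoxc13 lower in dnBrg1 than in the control line, while Hoxc8, Hoxc10 and Hoxc12 did not pass. The comparison set the mean of a line's repressed and induced groups against that of the control. It is an average over both states, and a difference need not hold in each, as the Hoxc6 values below show. In dnBrg1, 12 of 37 Hox genes differed (3 higher and 9 lower, 32.4%), where 29.8% of all genes passed, 13.5% higher and 16.3% lower. In dnSnf2h, 7 differed (3 higher and 4 lower, 18.9%), against 20.5% of all genes, and in dnChd4, 4 differed (1 higher and 3 lower, 10.8%), against 13.6%. Higher genes made up 8.5% of all genes in dnSnf2h and 5.71% in dnChd4, and lower genes 12% and 7.91%. These shares were near those of all genes, so the counts say nothing particular to Hox genes. The median difference over the 37 genes was -0.09 in dnBrg1, -0.13 in dnChd4 and -0.05 in dnSnf2h, and over all genes -0.02, -0.02 and -0.01. Tests were limma's moderated test with Benjamini-Hochberg adjustment over all genes, called at an adjusted p under 0.05. The 3 comparisons share the 5 control arrays, so what departs in the control line appears in each.

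At the 3′ end of HoxC, Hoxc4, Hoxc5 and Hoxc6 were higher in dnBrg1. Hoxc4, expressed from the neck level downwards, read 4.32 and 4.56 repressed and 4.53, 4.49 and 4.62 induced in the control line. In the other lines its values were 4.93 and 4.96 repressed and 4.93 and 4.85 induced in dnBrg1, 4.91 and 4.63 repressed and 4.75 and 4.70 induced in dnChd4, and 4.82 and 5.02 repressed and 4.91 and 4.79 induced in dnSnf2h. Every array of the 3 lines lay above every control array, although Hoxc4 is a dim gene. Hoxc4 was higher by 0.42 ± 0.08 in dnBrg1 (log2, ± SE; adjusted p = 0.00167) and by 0.39 ± 0.08 in dnSnf2h (adjusted p = 0.00542), and both calls held with any 1 array left out. In dnChd4 its difference of 0.25 ± 0.08 missed the threshold (adjusted p = 0.0515).

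Hoxc5, whose span holds the microRNA gene Mir615, read 5.20 and 5.17 repressed and 5.64, 5.17 and 4.95 induced in the control line. The other lines had 5.96 and 6.22 repressed and 5.48 and 5.60 induced in dnBrg1, 5.72 and 5.54 repressed and 5.78 and 5.57 induced in dnChd4, and 5.82 and 5.70 repressed and 5.31 and 5.59 induced in dnSnf2h. The array labelled control induced replicate 1 was the highest control array and overlapped each of the 3 lines, and the other 4 control arrays lay below all of their arrays. Hoxc5 was higher by 0.60 ± 0.13 in dnBrg1 (adjusted p = 0.00355), by 0.43 ± 0.13 in dnChd4 (adjusted p = 0.0397) and by 0.38 ± 0.13 in dnSnf2h (adjusted p = 0.0477). The dnBrg1 call held with any 1 array left out, while the dnChd4 call held in 7 and the dnSnf2h call in 1 of 17 such fits, with adjusted p-values of up to 0.157 without dnChd4 induced replicate 1 and 0.168 without dnSnf2h induced replicate 2. In 15 arrays the differences were 0.70, 0.53 and 0.49, each past the threshold.

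Hoxc6, a gene known in mammary growth, read 5.83 and 5.70 repressed and 5.94, 6.08 and 6.21 induced in the control line. Its values elsewhere were 6.97 and 6.40 repressed and 5.99 and 5.86 induced in dnBrg1, 6.44 and 6.04 repressed and 6.0 and 5.97 induced in dnChd4, and 6.39 and 6.41 repressed and 5.98 and 6.25 induced in dnSnf2h. The repressed arrays of the dominant-negative lines all lay above the repressed control arrays, and the induced ones overlapped the induced control arrays. Hoxc6 was higher by 0.38 ± 0.12 in dnBrg1 (adjusted p = 0.0288), a call that held in 13 of the 17 fits with 1 array left out; without dnBrg1 repressed replicate 1 the difference was 0.24 (adjusted p = 0.137), and the call was also lost without control repressed replicate 2 and without either induced dnBrg1 array. Over the repressed groups alone it was higher by 0.92 in dnBrg1 (adjusted p = 0.00422) and by 0.63 in dnSnf2h (adjusted p = 0.0428).

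Hoxc8, a gene of the lower thorax, lies between these 3′ genes and the 5′ genes described next. The control line had 5.28 and 5.35 repressed and 5.37, 5.33 and 5.20 induced, and the others 5.37 and 5.48 repressed and 5.34 and 5.08 induced in dnBrg1, 5.59 and 5.32 repressed and 5.37 and 5.37 induced in dnChd4, and 5.72 and 5.54 repressed and 5.58 and 5.43 induced in dnSnf2h. All dnSnf2h arrays lay above the control arrays, and those of dnBrg1 and dnChd4 overlapped them. Hoxc8 was higher by 0.26 ± 0.08 in dnSnf2h (adjusted p = 0.0415), which held in 5 of 17 fits with 1 array left out (adjusted p up to 0.137, without dnSnf2h induced replicate 1), and its difference was 0.01 ± 0.08 in dnBrg1 (adjusted p = 0.932).

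Towards the 5′ end of HoxC the sign turned, and Hoxc9, Hoxc11 and Hoxc13 were lower in dnBrg1. Hoxc13, a gene of hair and nail formation, read 7.62 and 7.33 repressed and 7.17, 7.65 and 7.67 induced in the control line. The other lines had 6.80 and 6.53 repressed and 6.97 and 6.94 induced in dnBrg1, 6.81 and 6.95 repressed and 7.50 and 7.41 induced in dnChd4, and 7.08 and 7.18 repressed and 7.41 and 7.50 induced in dnSnf2h. All dnBrg1 arrays lay below all control arrays, while the induced arrays of dnChd4 and dnSnf2h lay within the control range. Hoxc13 was lower in dnBrg1, at -0.68 ± 0.11 (a 1.6-fold difference; adjusted p = 0.000574), and this call held with any 1 array left out. Its differences in dnChd4 and dnSnf2h were -0.32 ± 0.11 and -0.20 ± 0.11 (adjusted p = 0.0672 and 0.221); in 15 arrays Hoxc13 was lower in dnChd4 by the test, at -0.33 (adjusted p = 0.00685).

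Hoxc11, of the paralog group that patterns the sacrum and kidney, read 6.80 and 6.88 repressed and 6.81, 7.02 and 6.93 induced in the control line. Elsewhere Hoxc11 had 6.37 and 6.24 repressed and 6.65 and 6.35 induced in dnBrg1, 6.54 and 6.64 repressed and 6.83 and 6.89 induced in dnChd4, and 6.71 and 6.85 repressed and 6.58 and 6.81 induced in dnSnf2h. Again every dnBrg1 array lay below every control array, and the other lines overlapped the control. Hoxc11 was lower in dnBrg1, at -0.48 ± 0.08 (adjusted p = 0.000986), with any 1 array left out as well. Hoxc9, which specifies thoracic motor neurons and had the highest mean of HoxC, read 7.52 and 7.63 repressed and 7.44, 7.75 and 7.97 induced in the control line. The remaining Hoxc9 values were 7.16 and 7.40 repressed and 7.25 and 7.42 induced in dnBrg1, 7.44 and 7.45 repressed and 7.52 and 7.44 induced in dnChd4, and 7.48 and 7.57 repressed and 7.38 and 7.55 induced in dnSnf2h. Its dnBrg1 arrays all lay below the control arrays, by a narrow margin. Hoxc9 was lower in dnBrg1, at -0.34 ± 0.10 (adjusted p = 0.0217), which held in 14 of 17 fits with 1 array left out; the call was lost without control repressed replicate 2, dnBrg1 repressed replicate 1 and dnBrg1 induced replicate 1, with an adjusted p of up to 0.0965.

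Hoxc10 and Hoxc12 had smaller differences of the same sign. Hoxc10, a lumbar and hindlimb gene, read 5.05 and 5.11 repressed and 4.82, 5.00 and 5.04 induced in the control line and 4.84 and 4.55 repressed and 4.89 and 4.90 induced in dnBrg1, 5.03 and 4.88 repressed and 4.92 and 4.72 induced in dnChd4, and 4.92 and 4.81 repressed and 4.89 and 4.84 induced in dnSnf2h. For Hoxc12 the control line had 5.35 and 5.28 repressed and 4.93, 5.13 and 5.10 induced, and the others 5.07 and 5.09 repressed and 5.03 and 5.03 induced in dnBrg1, 5.02 and 5.19 repressed and 4.74 and 4.95 induced in dnChd4, and 4.91 and 5.03 repressed and 5.03 and 5.03 induced in dnSnf2h. Over all 17 arrays both genes overlapped the control in every line, Hoxc10 in dnBrg1 only through control induced replicate 1. Neither passed in the 17-array fit of the deposited values, though Hoxc10 passed as lower in dnBrg1 with quantile scaling, median centring or a trended and robust variance. In 15 arrays Hoxc10 was lower in dnBrg1, at -0.27 ± 0.09 (adjusted p = 0.0197), and Hoxc12 in dnChd4, at -0.23 ± 0.08 (adjusted p = 0.0396). Read along the cluster, the dnBrg1 differences from Hoxc4 to Hoxc13 were 0.42, 0.60, 0.38, 0.01, -0.34, -0.22, -0.48, -0.13 and -0.68. The same series in dnChd4 was 0.25, 0.43, 0.19, 0.11, -0.19, -0.13, -0.15, -0.21 and -0.32, and in dnSnf2h it was 0.39, 0.38, 0.34, 0.26, -0.15, -0.15, -0.14, -0.18 and -0.20. The sign changed between Hoxc8 and Hoxc9 in each, with the control arrays common to all 3. In the repressed groups alone, where tetracycline kept the dominant-negative proteins repressed, the dnBrg1 series ran from 0.50, 0.91 and 0.92 at Hoxc4 to Hoxc6 to -0.53 at Hoxc11 and -0.81 at Hoxc13, each of these past the threshold (adjusted p = 0.0118, 0.00603, 0.00422, 0.0108 and 0.00498). Hoxc10 passed there too, at -0.38 (adjusted p = 0.045), while Hoxc8, Hoxc9 and Hoxc12 did not, at 0.11, -0.30 and -0.24 (adjusted p = 0.579, 0.193 and 0.145).

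**Figure D2:**
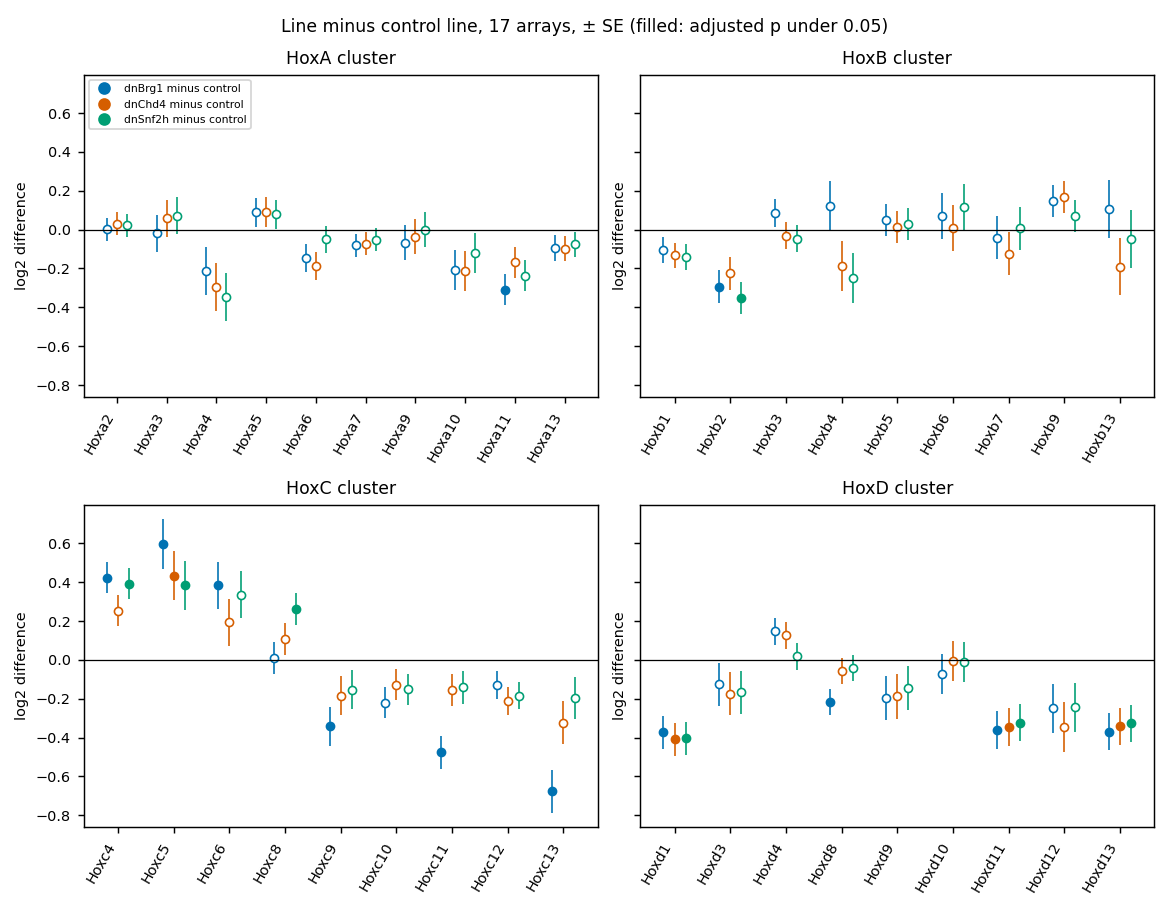
Log2 difference of each dominant-negative line from the control line for the 37 Hox genes, with genes in paralog order; points are estimates from 17 arrays, bars are ± SE, and filled points have an adjusted p under 0.05. In HoxC the dnBrg1 points fall from 0.42 at Hoxc4 and 0.60 at Hoxc5 to -0.68 at Hoxc13, and in HoxD the points of all 3 lines lie below 0 at Hoxd1, Hoxd11 and Hoxd13. Hoxc4, Hoxd1 and Hoxd13 are dim.

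In HoxD no gene was higher and Hoxd1, Hoxd11 and Hoxd13 were lower in each dominant-negative line than in the control, in the 17-array fit. Hoxd1 and Hoxd13 are dim, with means of 4.68 and 4.23. With the replicate number as a block, Hoxd1 passed in all 3 lines, Hoxd11 in dnBrg1 and dnSnf2h, and Hoxd13 in dnBrg1 alone. Hoxd1, the 3′-most gene of the cluster and one used by pain-sensing neurons in mice, read 4.87 and 4.98 repressed and 5.14, 4.86 and 4.94 induced in the control line. Its other values were 4.73 and 4.66 repressed and 4.54 and 4.41 induced in dnBrg1, 4.65 and 4.40 repressed and 4.51 and 4.61 induced in dnChd4, and 4.63 and 4.35 repressed and 4.62 and 4.60 induced in dnSnf2h. Every array of the 3 lines lay below every control array. In dnBrg1, dnChd4 and dnSnf2h, Hoxd1 was lower at -0.37 ± 0.08, -0.41 ± 0.08 and -0.40 ± 0.08 (adjusted p = 0.0057, 0.00855 and 0.00659), and all 3 calls held with any 1 array left out. The 3 values lay within 1 SE of each other. Over the repressed groups alone Hoxd1 passed in dnSnf2h, at -0.44 (adjusted p = 0.0474), and not in dnBrg1 or dnChd4, at -0.24 and -0.40 (adjusted p = 0.226 and 0.107).

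Hoxd13, the 5′-most gene and one required for digits, read 4.48 and 4.34 repressed and 4.61, 4.34 and 4.63 induced in the control line. The dominant-negative lines had 3.93 and 4.06 repressed and 4.19 and 4.21 induced in dnBrg1, 4.18 and 4.29 repressed and 3.83 and 4.21 induced in dnChd4, and 4.16 and 4.04 repressed and 4.30 and 4.07 induced in dnSnf2h. Here too each of their arrays lay below each control array. In dnBrg1, dnChd4 and dnSnf2h, Hoxd13 was lower at -0.37 ± 0.10, -0.34 ± 0.10 and -0.33 ± 0.10 (adjusted p = 0.0111, 0.0336 and 0.0307). The dnBrg1 call held in all 17 fits with 1 array left out, the dnChd4 call in 10 and the dnSnf2h call in 13. The highest adjusted p was 0.165 without dnChd4 induced replicate 1 and 0.118 without dnSnf2h induced replicate 2. In 15 arrays Hoxd13 passed in dnBrg1 alone, at -0.32, a call lost in 1 of the 2 fits without a remaining induced control array, and over the repressed groups in none of the 3 lines (adjusted p = 0.0626, 0.514 and 0.181 in dnBrg1, dnChd4 and dnSnf2h).

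Hoxd11, a forearm and kidney gene, read 5.74 and 5.74 repressed and 5.57, 5.73 and 5.48 induced in the control line. Its values in the others were 5.23 and 5.56 repressed and 5.24 and 5.18 induced in dnBrg1, 5.30 and 5.50 repressed and 5.24 and 5.24 induced in dnChd4, and 5.47 and 5.11 repressed and 5.49 and 5.30 induced in dnSnf2h. In each line 3 of 4 arrays lay below every control array. Hoxd11 was lower at -0.36 ± 0.10, -0.35 ± 0.10 and -0.32 ± 0.10 in dnBrg1, dnChd4 and dnSnf2h (adjusted p = 0.0141, 0.0332 and 0.0339), and the calls held in 15, 11 and 12 of 17 fits with 1 array left out. Their highest adjusted p in such a fit was 0.0737 without dnBrg1 repressed replicate 1, 0.134 without dnChd4 repressed replicate 1 and 0.145 without dnSnf2h repressed replicate 2. Over the repressed groups alone Hoxd11 passed in none of the 3 lines (adjusted p = 0.126, 0.216 and 0.0682). Hoxd8 read 4.10 and 4.33 repressed and 4.25, 4.15 and 4.10 induced in the control line and 3.96 and 3.98 repressed and 3.99 and 3.95 induced in dnBrg1, 4.10 and 4.12 repressed and 4.08 and 4.23 induced in dnChd4, and 4.18 and 4.16 repressed and 4.16 and 4.10 induced in dnSnf2h. The dnBrg1 arrays of Hoxd8 all lay below the control, at a dim level, and the other lines overlapped it. Hoxd8 was lower in dnBrg1, at -0.22 ± 0.07 (adjusted p = 0.0266), which held in 12 of 17 such fits, with an adjusted p of up to 0.1 without control repressed replicate 2.

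Hoxd9 and Hoxd12 did not pass in the 17-array fit and passed in 15 arrays. Hoxd9, of the paralog group that acts in the mammary gland, read 5.29 and 5.66 repressed and 5.35, 5.58 and 5.70 induced in the control line and 5.12 and 5.65 repressed and 5.29 and 5.20 induced in dnBrg1, 5.35 and 5.31 repressed and 5.27 and 5.37 induced in dnChd4, and 5.40 and 5.53 repressed and 5.28 and 5.26 induced in dnSnf2h. Over all 17 arrays each line overlapped the control. In 15 arrays Hoxd9 was lower at -0.34, -0.33 and -0.28 in dnBrg1, dnChd4 and dnSnf2h. There dnBrg1 still overlapped the control, while all dnChd4 and dnSnf2h arrays lay below the control arrays. Hoxd12, a limb gene, read 4.46 and 4.75 repressed and 5.06, 4.73 and 4.59 induced in the control line and 4.18 and 4.75 repressed and 4.42 and 4.45 induced in dnBrg1, 4.45 and 4.41 repressed and 4.29 and 4.26 induced in dnChd4, and 4.33 and 4.66 repressed and 4.45 and 4.37 induced in dnSnf2h. All dnChd4 arrays of Hoxd12 lay below the control arrays. In 15 arrays Hoxd12 was lower in dnChd4, at -0.35 (adjusted p = 0.034), and with quantile scaling of the 17 arrays it passed as lower in dnBrg1 and dnChd4. Hoxd3, Hoxd4 and Hoxd10 passed in none of these comparisons. The 10 dim members had a median difference of -0.24 in dnBrg1, -0.15 in dnChd4 and -0.19 in dnSnf2h, and all dim genes -0.02, -0.02 and 0.01.

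In HoxA and HoxB, Hoxb2 and Hoxa11 were the members that differed from the control in the 17-array fit, both dim and both lower. Hoxb2, a hindbrain gene, read 4.92 and 5.00 repressed and 4.91, 4.70 and 5.10 induced in the control line and 4.62 and 4.83 repressed and 4.56 and 4.54 induced in dnBrg1, 4.70 and 4.79 repressed and 4.67 and 4.67 induced in dnChd4, and 4.60 and 4.52 repressed and 4.51 and 4.69 induced in dnSnf2h. Its dnSnf2h arrays all lay below the control, as did 3 of 4 in each other line. Hoxb2 was lower in dnBrg1, at -0.29 ± 0.08 (adjusted p = 0.0191), and in dnSnf2h, at -0.35 ± 0.08 (adjusted p = 0.0124), in 14 and 16 of 17 fits with 1 array left out. The dnBrg1 call was lost without dnBrg1 repressed replicate 1, dnBrg1 induced replicate 1 and dnBrg1 induced replicate 2, with an adjusted p of up to 0.0868, and the dnSnf2h call was lost without dnSnf2h induced replicate 1, with an adjusted p of up to 0.0526. Hoxa11 read 4.16 and 3.86 repressed and 4.07, 4.09 and 3.90 induced in the control line and 3.71 and 3.90 repressed and 3.56 and 3.64 induced in dnBrg1, 3.91 and 3.93 repressed and 3.71 and 3.83 induced in dnChd4, and 3.81 and 3.73 repressed and 3.72 and 3.85 induced in dnSnf2h. The dnSnf2h arrays of Hoxa11 lay below the control, while the test passed in dnBrg1, at -0.31 ± 0.08 (adjusted p = 0.0114), and in 16 of 17 fits with 1 array left out (lost without dnBrg1 repressed replicate 1, with an adjusted p of up to 0.0566). Its difference in dnSnf2h was -0.24 ± 0.08 (adjusted p = 0.0532).

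Hoxa4 and Hoxa6 passed in the 15-array fit. Hoxa4, which had the highest mean of HoxA and acts in the neck, read 6.80 and 6.95 repressed and 6.59, 6.92 and 6.83 induced in the control line and 6.39 and 6.72 repressed and 6.70 and 6.64 induced in dnBrg1, 6.74 and 6.63 repressed and 6.19 and 6.56 induced in dnChd4, and 6.70 and 6.22 repressed and 6.63 and 6.38 induced in dnSnf2h. Over all 17 arrays the lines overlapped the control, through control induced replicate 1. In 15 arrays Hoxa4 was lower at -0.38 in dnChd4 and -0.43 in dnSnf2h, with all arrays of those lines below the control arrays. Hoxa6 read 5.90 and 6.17 repressed and 5.88, 6.11 and 6.07 induced in the control line and 5.89 and 5.91 repressed and 5.90 and 5.82 induced in dnBrg1, 5.89 and 5.90 repressed and 5.80 and 5.76 induced in dnChd4, and 5.90 and 5.91 repressed and 6.06 and 6.03 induced in dnSnf2h. Over all 17 arrays these lines overlapped the control, through the control arrays labelled replicate 1. In 15 arrays Hoxa6 was lower at -0.25 in dnBrg1 and -0.29 in dnChd4, with all arrays of those lines below the control arrays. In that fit 15, 11 and 11 Hox genes differed from the control in dnBrg1, dnChd4 and dnSnf2h, where 41.6%, 26.1% and 33% of all genes passed. Further calls of that fit beyond those of the 17-array fit were Hoxb4 in dnSnf2h (-0.27), Hoxb13 in dnChd4 (-0.27), Hoxc9 in dnChd4 and dnSnf2h (-0.28 and -0.25) and Hoxc6 in dnSnf2h (0.34). Hoxa4 in dnSnf2h also passed with quantile scaling of the 17 arrays, and Hoxc6 in dnSnf2h over the repressed groups alone, at 0.63 (adjusted p = 0.0428). Of these 15-array calls, Hoxa4 and Hoxc12 in dnChd4 and Hoxc6 and Hoxd9 in dnSnf2h were lost whichever remaining induced control array was left out. Lost in 1 of those 2 fits were Hoxd9 in dnBrg1, Hoxb13, Hoxc9, Hoxd9 and Hoxd12 in dnChd4, and Hoxb4 and Hoxc9 in dnSnf2h. Hoxa6 in dnBrg1 and dnChd4, Hoxa4 in dnSnf2h, Hoxc10 in dnBrg1 and Hoxc13 in dnChd4 passed in both.

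The remaining 13 members, Hoxa2, Hoxa3, Hoxa5, Hoxa7, Hoxa9, Hoxa13, Hoxb1, Hoxb3, Hoxb7, Hoxb9, Hoxd3, Hoxd4 and Hoxd10, passed in no comparison of lines or inductions in the 17-array, 15-array or 12-array fit. Their differences from the control line in 17 arrays ran from -0.13 for Hoxd3 to 0.15 for Hoxb9 in dnBrg1, from -0.17 for Hoxd3 to 0.17 for Hoxb9 in dnChd4 and from -0.17 for Hoxd3 to 0.08 for Hoxa5 in dnSnf2h. Their induction differences ran from -0.25 for Hoxb3 to 0.18 for Hoxb9 in dnBrg1, from -0.24 for Hoxb3 to 0.09 for Hoxd10 in dnChd4 and from -0.33 for Hoxa3 to 0.23 for Hoxb7 in dnSnf2h. Hoxa9, of the mammary paralog group 9, differed from the control line by -0.07 ± 0.09, -0.04 ± 0.09 and 0.00 ± 0.09 in dnBrg1, dnChd4 and dnSnf2h, and Hoxb9 by 0.15 ± 0.08, 0.17 ± 0.08 and 0.07 ± 0.08. Hoxb3, whose span overlaps that of Hoxb4, had both induced arrays below both repressed arrays in each dominant-negative line, at differences of -0.25, -0.24 and -0.19 in dnBrg1, dnChd4 and dnSnf2h (adjusted p = 0.136, 0.133 and 0.234 in 12 arrays), while Hoxb4 differed in the other direction.

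Upstream sequence of Hoxb4, Hoxc4 and Hoxd1 is shown for 3 members that the results above and below turn on, chosen after their values were seen, 1 each of HoxB, HoxC and HoxD. Hoxa11, whose promoter was matched too, held 0 motif matches upstream and is not shown. Each run is the 250 bases before the RefSeq start on the plus strand of GRCm38.p6, at chr11:96318017-96318266 for Hoxb4, chr15:103034145-103034394 for Hoxc4 and chr2:74762730-74762979 for Hoxd1. Capitals mark matches, on either strand, to the motifs searched.
Hoxb4: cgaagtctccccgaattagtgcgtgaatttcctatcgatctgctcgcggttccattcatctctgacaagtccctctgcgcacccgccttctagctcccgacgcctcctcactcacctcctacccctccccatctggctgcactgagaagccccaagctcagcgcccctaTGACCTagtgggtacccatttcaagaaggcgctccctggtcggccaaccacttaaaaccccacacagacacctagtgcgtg
Hoxc4: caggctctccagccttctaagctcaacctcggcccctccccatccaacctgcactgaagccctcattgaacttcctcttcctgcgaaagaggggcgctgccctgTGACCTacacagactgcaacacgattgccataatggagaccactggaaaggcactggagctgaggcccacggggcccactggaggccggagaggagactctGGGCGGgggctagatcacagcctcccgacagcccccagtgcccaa
Hoxd1: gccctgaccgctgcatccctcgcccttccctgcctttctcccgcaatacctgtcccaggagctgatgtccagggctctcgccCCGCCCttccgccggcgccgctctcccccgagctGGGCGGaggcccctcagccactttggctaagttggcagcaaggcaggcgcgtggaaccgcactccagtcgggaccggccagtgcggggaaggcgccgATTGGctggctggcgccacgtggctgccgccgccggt

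Hoxb4 holds 1 match, to the nuclear receptor hexamer AGGTCA. Hoxc4 holds that hexamer and a GC box (GGGCGG), and Hoxd1 holds 2 GC boxes and a CCAAT box. No matches overlapped in these 3 runs. Promoters were matched for 21 of the 37 members, giving 23 promoters, which were set beside 32851 promoters of the same length. Only Hoxb1 and Hoxb4 were matched in HoxB and only Hoxc4 in HoxC. The shares for Hox promoters thus describe mostly HoxA and HoxD. CCAAT was found in 56.5% of Hox promoters and 33.8% of all, GGGCGG in 39.1% and 32.7%, AGGTCA in 26.1% and 14%, and TATAAA in 13% and 12.4%. The joint PBX and Hox site TGATTNAT was found in 8.7% of Hox promoters and 2.82% of all, at Hoxa2 and Hoxd11, and the AP-1 site TGANTCA in 4.35% and 6.75%. The median GC content was 59.2% in Hox promoters and 52.4% in all, and the median observed-to-expected CpG ratio 0.687 and 0.373. A match is a description of the letters and not a bound site.

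Among the dominant-negative lines few Hox genes differed, in a smaller share than over all genes. In 17 arrays Hoxc11 was lower in dnBrg1 than in dnChd4, at -0.32 ± 0.09 (adjusted p = 0.0293), the 1 Hox gene called (2.7%) where 10.6% of all genes passed. Against dnSnf2h, Hoxc11 and Hoxc13 were lower in dnBrg1, at -0.33 ± 0.09 and -0.48 ± 0.11 (adjusted p = 0.0261 and 0.0162), 2 Hox genes (5.41%) where 10% of all genes passed. These calls held in 11, 13 and 12 of 17 fits with 1 array left out, with adjusted p-values of up to 0.148 and 0.132 for Hoxc11 without dnBrg1 induced replicate 2 and 0.0752 for Hoxc13 without dnBrg1 repressed replicate 2. The fit of the 12 arrays of these lines alone, which holds no control array, called 4 Hox genes (10.8%) in each of these comparisons, where 22.9% and 23% of all genes passed. In it Hoxc13 was lower in dnBrg1 at -0.35 against dnChd4 and -0.48 against dnSnf2h, and Hoxb4 higher at 0.31 and 0.37 (adjusted p = 0.00241, 0.000225, 0.00658 and 0.00198). Hoxb13 was higher against dnChd4 (0.29) and Hoxc8 lower against dnSnf2h (-0.25; adjusted p = 0.0439), the latter in 5 of 12 fits with 1 array left out. Each is an average over both states. Over the repressed groups alone, in 17 arrays, Hoxb4 differed by 0.06 against dnChd4 and 0.27 against dnSnf2h (limma, adjusted p = 0.966 and 0.603). There Hoxb13 differed by 0.08 against dnChd4 (adjusted p = 0.961). Hoxc13 differed by -0.21 against dnChd4 and -0.47 against dnSnf2h (adjusted p = 0.685 and 0.151). In 15 arrays 4 Hox genes differed between dnBrg1 and dnChd4, 5 between dnBrg1 and dnSnf2h and 0 between dnChd4 and dnSnf2h, where 23.5%, 23.8% and 0.356% of all genes passed. Hoxc9 and Hoxd8, at dnBrg1 levels below all dnChd4 arrays, did not pass against dnChd4. Between dnChd4 and dnSnf2h limma called 0 Hox genes in 17 and in 12 arrays, with 0 and 1 at an unadjusted p under 0.05, and 0.0451% and 0.281% of all genes passed. Differences between these lines ranged from -0.16 for Hoxc8 to 0.13 for Hoxb2.

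Which Hox genes were called between repressed and induced cells depended on the arrays that set the spread. Tetracycline withdrawal induces the transactivator in every line, so a change within a dominant-negative line cannot be told apart from that of the transactivator without the control line, described further on. In the 17-array fit limma called 0 of 37 Hox genes in each of the 4 lines, where 0% of all genes passed in the control line and 0.341%, 0.0953% and 0.00502% in dnBrg1, dnChd4 and dnSnf2h. At an unadjusted p under 0.05 there were 1, 6, 4 and 2 Hox genes. In the 12 arrays of the dominant-negative lines, 5 Hox genes changed in dnBrg1 (13.5%), 1 in dnChd4 (2.7%) and 2 in dnSnf2h (5.41%), where 14.2%, 18% and 17.5% of all genes passed. The 15-array fit called the same numbers of Hox genes in these lines, where 14.9%, 18.8% and 18.4% of all genes passed. In 12 arrays the dnBrg1 share was near that of all genes, and the shares in dnChd4 and dnSnf2h were smaller. The 17-array counts of 0 were near the shares of all genes, so they say nothing particular to Hox genes. The estimates are the same in the 17-array and 12-array fits. Of these 2, the 12-array fit has the smaller standard errors, as the 5 control arrays do not enter its spread. The 12-array fit called Hoxb4 and Hoxb13 higher and Hoxb5, Hoxc5 and Hoxc6 lower in induced dnBrg1 cells, Hoxc13 higher in induced dnChd4 cells, and Hoxb4 and Hoxc13 higher in induced dnSnf2h cells.

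Mesenchymal marker genes moved with the same inductions. In the 12-array fit 9 of 13 fell in dnBrg1 and 6 in dnSnf2h, and in dnChd4 1 rose and 2 fell, with median differences of -0.74, -0.33 and -0.18, where 14.2%, 17.5% and 18% of all genes passed. In the control line, in 15 arrays, 1 rose and 6 fell, where 26.6% of all genes passed. Of 8 macrophage markers 3 rose in dnChd4 in the 12-array fit and 2 in the 17-array fit, with Itgam, the lowest, at a mean of 3.91. Of the 10 epithelial markers 0 changed in dnBrg1 and dnChd4 and 1 rose in dnSnf2h. The part of these marker genes in the Hox values was not tested.

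Hoxb4, known for expanding blood stem cells, read 6.52 and 6.38 repressed and 7.16 and 7.03 induced in dnBrg1. It read 6.50 and 6.28 repressed and 6.57 and 6.51 induced in dnChd4 and 6.21 and 6.16 repressed and 6.53 and 6.71 induced in dnSnf2h. In each of these lines both induced arrays lay above both repressed arrays. Hoxb4 rose by 0.64 ± 0.11 in dnBrg1 (1.56-fold; adjusted p = 0.00083 in 12 and 0.214 in 17 arrays) and by 0.44 ± 0.11 in dnSnf2h (adjusted p = 0.00907 in 12 and 0.393 in 17 arrays). The dnBrg1 call held in all 12 fits with 1 array left out, and the dnSnf2h call in 11, with an adjusted p of 0.0842 and a difference of 0.35 without dnSnf2h induced replicate 2. In dnChd4 the difference was 0.15 ± 0.11 (adjusted p = 0.425).

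Hoxb13, the last gene of HoxB and one of the prostate and tail, read 6.18 and 5.91 repressed and 6.68 and 6.65 induced in dnBrg1. Its values were 5.93 and 6.0 repressed and 6.17 and 6.12 induced in dnChd4 and 6.18 and 6.10 repressed and 6.26 and 6.26 induced in dnSnf2h. Induced arrays lay above repressed ones in the 3 lines, with the widest gap in dnBrg1. Hoxb13 rose by 0.62 ± 0.10 in dnBrg1 (1.54-fold; adjusted p = 0.000732 in 12 and 0.334 in 17 arrays), in all 12 fits with 1 array left out. Its differences of 0.18 in dnChd4 and 0.13 in dnSnf2h did not pass (adjusted p = 0.269 and 0.455).

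Hoxc6 had the largest induction difference of the members in dnBrg1, and its repressed dnBrg1 arrays read 6.97 and 6.40, the first of them the highest of the 17 values. The induced dnBrg1 arrays read 5.99 and 5.86, near the control values given above. Hoxc6 thus fell, by the 12-array test, from a level above the control line to a level within its range. The difference was -0.76 ± 0.16 (1.69-fold; adjusted p = 0.00564 in 12 and 0.0963 in 17 arrays), and the call held in 10 of 12 fits with 1 array left out; without dnBrg1 repressed replicate 1 it was -0.47 (adjusted p = 0.0774), and it was also lost without dnBrg1 induced replicate 2. Hoxc5 read 5.96 and 6.22 repressed and 5.48 and 5.60 induced in dnBrg1. Both induced arrays of Hoxc5 lay below both repressed arrays. Hoxc5 fell at -0.55 ± 0.13 (adjusted p = 0.00774 in 12 and 0.293 in 17 arrays), in 10 of 12 such fits, and was lost without dnBrg1 repressed replicate 2 and dnBrg1 induced replicate 1, with an adjusted p of up to 0.102.

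Hoxb5, a gene of the shoulder level and the gut's neurons, read 6.32 and 6.12 repressed and 5.79 and 5.66 induced in dnBrg1. It read 5.99 and 5.88 repressed and 5.94 and 5.92 induced in dnChd4 and 6.10 and 5.78 repressed and 5.91 and 6.01 induced in dnSnf2h. The groups separated in dnBrg1 and overlapped in the other lines. Hoxb5 fell at -0.50 ± 0.12 in dnBrg1 (1.41-fold; adjusted p = 0.00901 in 12 and 0.121 in 17 arrays), in 10 of 12 fits with 1 array left out, and was lost without dnBrg1 repressed replicate 1 and dnBrg1 induced replicate 2, with an adjusted p of up to 0.108. For Hoxc13, with its values given above, both induced arrays lay above both repressed arrays in each dominant-negative line. Hoxc13 rose by 0.57 ± 0.11 in dnChd4 (1.49-fold; adjusted p = 0.0013 in 12 and 0.336 in 17 arrays), in all 12 fits with 1 array left out. In dnSnf2h it rose by 0.32 ± 0.11 (adjusted p = 0.0496), a call kept in 2 of 12 such fits (adjusted p up to 0.199, without dnSnf2h induced replicate 2), and in dnBrg1 its difference was 0.29 ± 0.11 (adjusted p = 0.0839). The induced levels of Hoxc13 in dnChd4 and dnSnf2h lay within the range of the control line.

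**Figure D3:**
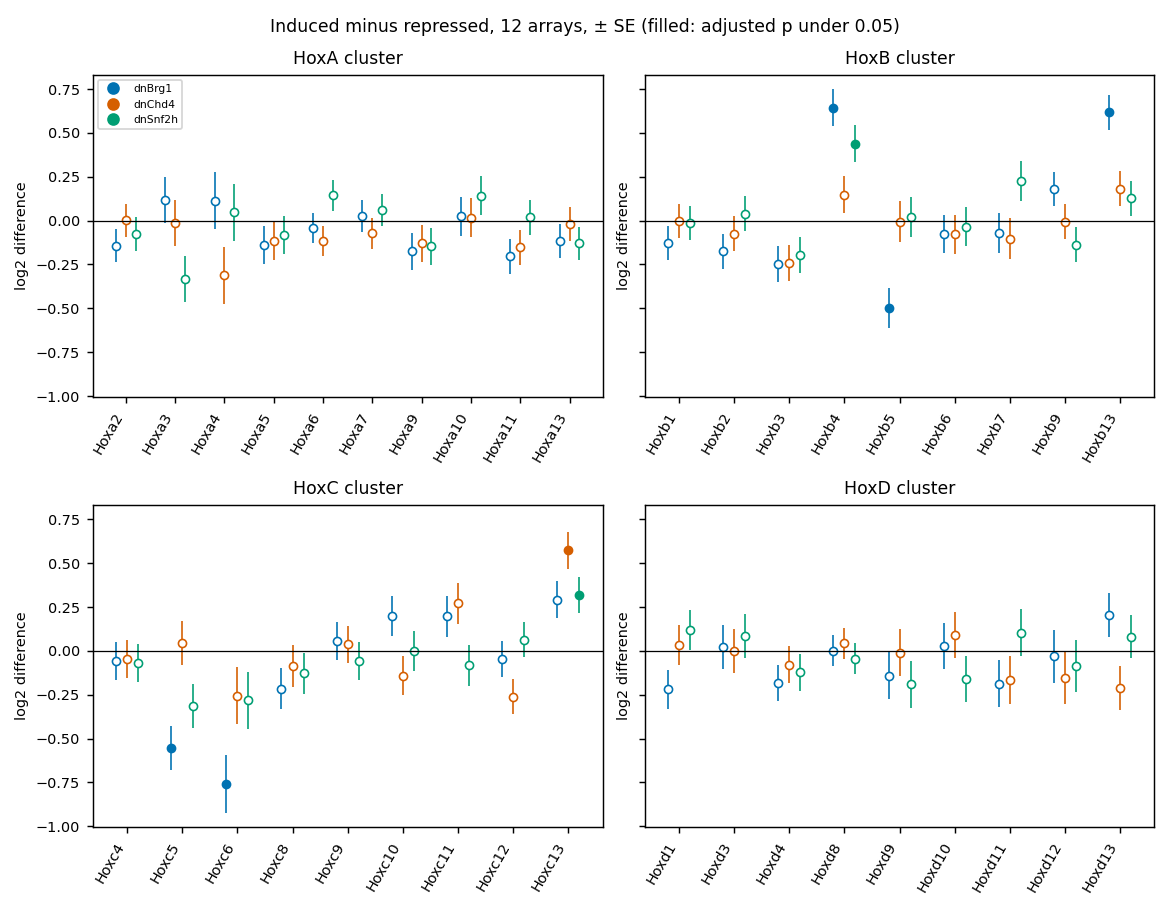
Log2 difference of induced minus repressed arrays in the 3 dominant-negative lines for the 37 Hox genes in paralog order; points are estimates from the 12 arrays of these lines, bars are ± SE, and filled points have an adjusted p under 0.05. Filled points are 0.64 and 0.62 for Hoxb4 and Hoxb13 and -0.50, -0.55 and -0.76 for Hoxb5, Hoxc5 and Hoxc6 in dnBrg1, 0.57 for Hoxc13 in dnChd4, and 0.44 and 0.32 for Hoxb4 and Hoxc13 in dnSnf2h.

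Whether an induction differed between lines was tested by the difference of the inductions, and 0 Hox genes passed in 17 or in 12 arrays by limma. Of all genes, 1.27%, 0.632% and 0.13% passed for dnBrg1 against dnChd4, dnBrg1 against dnSnf2h and dnChd4 against dnSnf2h in 12 arrays, and 0.13%, 0.0351% and 0.0401% in 17. Against the control line in 17 arrays 0.0903%, 0.0401% and 0% passed for dnBrg1, dnChd4 and dnSnf2h, and 5, 3 and 4 Hox genes had an unadjusted p under 0.05. For dnBrg1 against dnChd4 and dnSnf2h in 12 arrays, 7 and 4 Hox genes had an unadjusted p under 0.05, and in 17 arrays 2 and 2; between dnChd4 and dnSnf2h there were 2 and 1. The Hoxb13 induction differed between dnBrg1 and dnChd4 by 0.44 (95% interval 0.13 to 0.74) and between dnBrg1 and dnSnf2h by 0.49 (0.19 to 0.79), with adjusted p-values of 0.22 and 0.187. In the control line, which expresses the transactivator alone, Hoxb13 and Hoxb4 rose by 0.67 and 0.53 in 15 arrays. Their rises in dnBrg1 were 0.62 and 0.64. In 17 arrays the Hoxb4 induction of dnBrg1 was larger than that of the control by 0.49 and did not pass. For Hoxb4 the difference between dnBrg1 and dnSnf2h was 0.21 (-0.11 to 0.53; adjusted p = 0.713). The Hoxc13 inductions of dnChd4 and dnSnf2h differed by 0.25 (-0.06 to 0.57; adjusted p = 0.73). The Hoxb5 difference between dnBrg1 and dnSnf2h was -0.52 (-0.87 to -0.17; adjusted p = 0.24). These intervals are unadjusted, and a p that misses the threshold does not show that the lines responded alike.

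In the control line, where withdrawal of tetracycline induces the transactivator alone, the Hox values depended on which arrays were kept. Hoxb4 read 6.75 and 6.41 repressed and 6.30, 6.91 and 6.97 induced, and Hoxb13 6.23 and 5.99 repressed and 5.83, 6.59 and 6.73 induced. The arrays labelled control induced replicates 2 and 3 were the highest control arrays for both genes, and the array labelled control induced replicate 1 the lowest. In 17 arrays the induction differences were 0.15 ± 0.17 for Hoxb4 and 0.27 ± 0.20 for Hoxb13, both with an adjusted p of 0.994. With the 15 arrays, 4 Hox genes changed where 26.6% of all genes passed: Hoxb4 rose by 0.53, Hoxb13 by 0.67 and Hoxa10 by 0.45, and Hoxb6 fell at -0.48 (adjusted p = 0.00422, 0.000556, 0.0187 and 0.0144). That fit sets 2 induced arrays against 1 repressed array, whose spread is taken from the other groups, and between the 2 arrays it leaves out Hoxb4 read 6.75 repressed and 6.30 induced.

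Hoxa10, a gene of the uterus, read 6.47 and 5.93 repressed and 6.29, 6.32 and 6.44 induced in the control line and 6.15 and 5.97 repressed and 6.15 and 6.02 induced in dnBrg1, 6.0 and 6.11 repressed and 6.09 and 6.05 induced in dnChd4, and 6.21 and 5.96 repressed and 6.30 and 6.15 induced in dnSnf2h. Hoxb6, of the lower neck and thorax, read 6.38 and 6.94 repressed and 6.80, 6.37 and 6.55 induced in the control line and 6.81 and 6.65 repressed and 6.56 and 6.73 induced in dnBrg1, 6.78 and 6.55 repressed and 6.66 and 6.51 induced in dnChd4, and 6.75 and 6.75 repressed and 6.79 and 6.65 induced in dnSnf2h. For both genes the array labelled control repressed replicate 1 lay near the arrays labelled control induced replicates 2 and 3, and the other lines lay within the control range. The Hoxa10 and Hoxb6 calls each passed in 1 of the 2 fits that left out a further induced control array. In 15 arrays the Hoxc6 induction of dnBrg1 also differed from that of the control, by -1.20 ± 0.25 (adjusted p = 0.00863), as the 1 Hox gene called, where 6.95% of all genes passed. Limma called 0 Hox genes for the other differences of inductions in 15 arrays, where 0.818% and 2.08% of all genes passed for dnChd4 and dnSnf2h against the control, and 1.44%, 0.767% and 0.166% for dnBrg1 against dnChd4, dnBrg1 against dnSnf2h and dnChd4 against dnSnf2h. At an unadjusted p under 0.05 there were 7, 4, 7, 5 and 3 Hox genes, in that order. In 17 arrays the Hoxc6 difference was -1.07 ± 0.24 (adjusted p = 0.27).

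**Figure D4:**
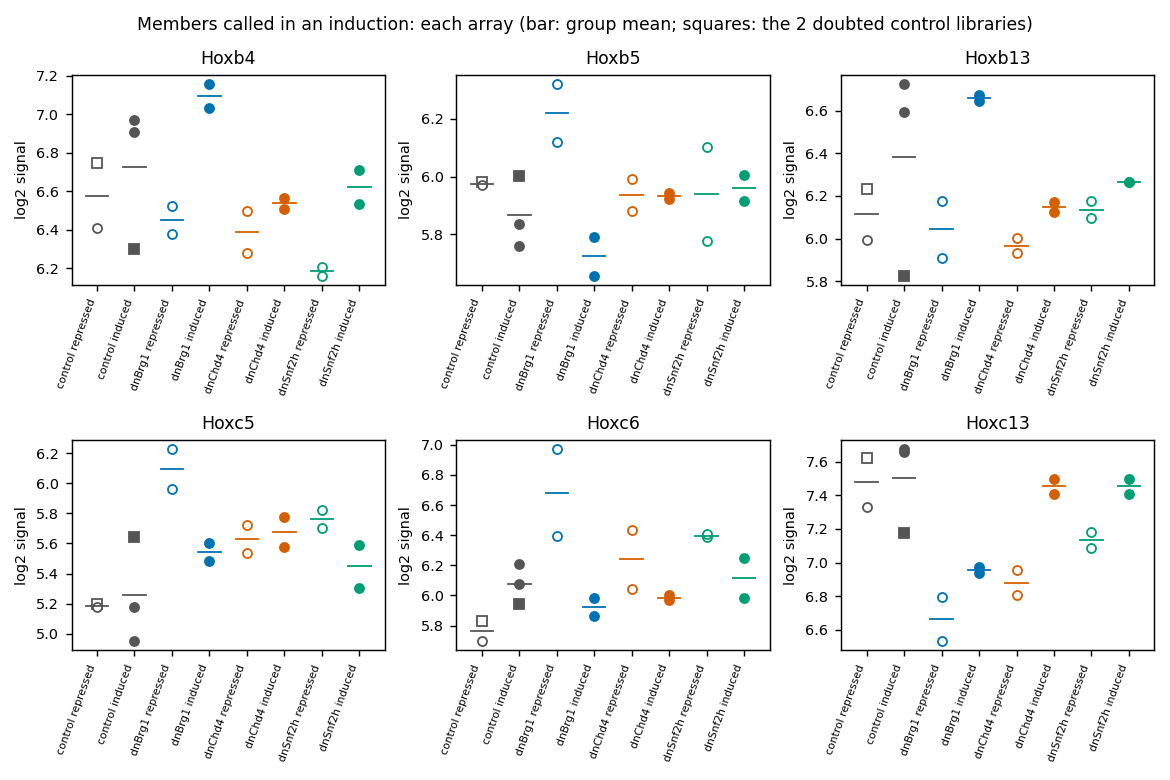
Log2 signal on each array for the 6 Hox genes called in an induction of the 12-array fit, with the 8 groups along the horizontal axis; open points are repressed and filled points induced arrays, bars are group means, and squares mark the control arrays labelled replicate 1, repressed and induced. Hoxb4 and Hoxb13 reach 7.16 and 6.68 in induced dnBrg1 cells, and Hoxb13 reaches 6.73 in control induced replicate 3. The squares sit away from their groups' other points for Hoxb4, Hoxb13 and Hoxc13.

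The RNA genes of the clusters had 10 of 17 listed members on the array, among them 6 microRNA genes, Hottip and Hoxd3os1. The microRNAs of the clusters repress target transcripts through their seed, bases 2 to 8 of the mature RNA, written here in capitals. Their RefSeq sequences are shown because Mir615, Mir10a and Mir196a-1 differed between the lines, with Mir10b and Mir196b for their shared seeds.
mmu-miR-615-3p: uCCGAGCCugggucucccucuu
mmu-miR-615-5p: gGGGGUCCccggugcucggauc
mmu-miR-10a-5p: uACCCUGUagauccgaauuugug
mmu-miR-10b-5p: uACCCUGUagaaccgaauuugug
mmu-miR-196a-5p: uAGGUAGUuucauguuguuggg
mmu-miR-196b-5p: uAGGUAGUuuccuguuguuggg

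miR-10a-5p of HoxB and miR-10b-5p of HoxD share a seed, as do miR-196a-5p, made from HoxB and HoxC, and miR-196b-5p of HoxA. Total RNA was labelled, and these probe sets need not report mature microRNA. Mir615, within the Hoxc5 span, read 7.73 and 7.97 repressed and 7.54, 7.56 and 7.64 induced in the control line and 6.54 and 6.81 repressed and 6.98 and 6.53 induced in dnBrg1, 7.23 and 6.98 repressed and 6.75 and 6.94 induced in dnChd4, and 6.92 and 6.82 repressed and 6.69 and 6.62 induced in dnSnf2h. Every dominant-negative array lay below every control array, whereas Hoxc5 was higher in the same lines. Mir615 was lower by the test at -1.0 ± 0.10, -0.74 ± 0.10 and -0.95 ± 0.10 in dnBrg1, dnChd4 and dnSnf2h (adjusted p = 2.19e-05, 0.00111 and 0.000206), and at -1.07, -0.81 and -1.02 in 15 arrays. In each line 3 of the 10 were higher and 2 lower than in the control. Of all genes 13.5%, 5.71% and 8.5% were higher and 16.3%, 7.91% and 12% lower in dnBrg1, dnChd4 and dnSnf2h. Mir10a, Mir196a-1 and Hoxd3os1 were higher, and Hottip, a non-coding RNA at the 5′ end of HoxA, was lower with Mir615. Mir196a-1 differed by 0.49, 0.39 and 0.47 in dnBrg1, dnChd4 and dnSnf2h, and Mir10a by 0.32, 0.35 and 0.52. Hoxd3os1, antisense to Hoxd3, differed by 0.35, 0.37 and 0.45, and Hottip by -0.36, -0.41 and -0.29. Mir10a, Mir196a-1 and Hottip were dim, with means of 3.52, 4.81 and 4.11, and Mir615 had a mean of 7.07. None of the 10 changed in an induction of the 17-array or 12-array fit, and in 15 arrays Mir196a-1 fell at -0.39 in dnBrg1 and -0.40 in dnSnf2h (adjusted p = 0.049 and 0.0397).

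Genes that work with or upon Hox genes, and other homeobox genes, were read from lists chosen, as the members were, with earlier results known. Of 9 listed TALE cofactors 8 were measured, and in dnBrg1 3 were higher and 4 lower than in the control, where 13.5% and 16.3% of all genes were higher and lower. Meis1, a partner of the 5′ Hox proteins, was higher by 0.82 ± 0.07, Meis2 by 0.50 and Pknox1 by 0.47, and Pbx2, Pbx3, Pbx4 and Pknox2 were lower at -0.55, -0.46, -0.33 and -0.48. In dnChd4 and dnSnf2h Meis1 and Pknox1 were higher and Pbx3 lower, with Meis1 at 0.38 and 0.35. The list's median was -0.17 in dnBrg1, beside -0.02 over all genes. Of 10 measured homeobox genes of the Cdx, Evx, Mnx, Meox and Gbx families, 5, 4 and 5 were lower in dnBrg1, dnChd4 and dnSnf2h. In the same lines 0, 1 and 1 were higher. Of all genes 16.3%, 7.91% and 12% were lower and 13.5%, 5.71% and 8.5% higher. Evx2, the neighbour of Hoxd13, was lower at -0.46, -0.37 and -0.42, and Gbx1 at -0.60, -0.57 and -0.49. The list's medians were -0.23, -0.21 and -0.27.

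Of 27 listed Polycomb genes 25 were measured. In the 17-array fit 1 changed on induction, Auts2, a PRC1 component, which rose by 2.16 ± 0.11 in dnBrg1 (adjusted p = 2.25e-06). In the 12-array fit 3 rose and 2 fell in dnBrg1, 3 and 3 in dnChd4, and 5 and 3 in dnSnf2h, where 14.2%, 18% and 17.5% of all genes passed. In the control line, in 15 arrays, 6 rose and 5 fell, where 26.6% of all genes passed. Ezh2, the H3K27 methyltransferase, fell at -0.61, -0.38 and -0.45 (adjusted p = 0.00244, 0.0338 and 0.0133), and Cbx2, which reads H3K27 methylation, at -0.54, -0.56 and -0.37. In the control line in 15 arrays Ezh2 and Cbx2 differed by -0.08 and -0.33 (adjusted p = 0.743 and 0.101). Jarid2, a PRC2 cofactor, rose by 0.40, 0.39 and 0.39 in the dominant-negative lines, and by 0.91 in the control line in 15 arrays (adjusted p = 1.1e-05; 17 arrays 0.20, adjusted p = 0.994). Between lines, 5 Polycomb genes were higher and 3 lower in dnBrg1 than in the control, with Suz12 at -0.44 and Mtf2 at 0.60, a share near the 29.8% of all genes. Of 9 measured trithorax and H3K27 demethylase genes, Kmt2a, which maintains Hox expression, was higher by 0.72, 0.45 and 0.49 in the 3 lines, and Kdm6a, an H3K27 demethylase, was lower in dnBrg1 at -0.60, as was Wdr5, a core partner of Kmt2a, at -0.48. On induction in the 12-array fit Men1, a partner of Kmt2a, fell at -0.39 in dnBrg1 and rose by 0.60 in dnChd4. In the control line in 15 arrays, with 1 repressed array, Men1 rose by 0.67. All its control arrays read 9.10 and 8.60 repressed and 8.68, 9.22 and 9.33 induced, and in 17 arrays 0% of all genes passed there. The part of these listed genes in the Hox values was not tested.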

How the data were processed

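Total RNA of the 8 groups was hybridised to 17 arrays of the type Affymetrix Mouse Gene 1.0 ST. The authors deposited 1 table of log2 signal values, made with Affymetrix Expression Console per the submitters' processing notes. Which version, summarization, normalization and build it used is not given in the sources used here. The values span 2.02 to 14.86 with 0 missing, and array medians lie between 5.48 and 5.63. Of 35557 probe sets, 21789 carry 1 gene symbol in the platform annotation, 1621 several and 12147 none. A gene with several probe sets (999 genes) was read from the one with the highest mean, which left 19938 genes. All 37 Hox members matched the RefSeq gene table. Hoxb8 is not analysed here, since no probe set carries its symbol alone.

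The 8 groups were fitted together with limma 3.58.1 in R 4.3.3, with p-values adjusted over all genes by Benjamini-Hochberg and a two-sided threshold of 0.05. Lines were compared as means of their repressed and induced groups, and inductions as induced minus repressed. The same model was fitted to 15 arrays and, for the dominant-negative lines, to 12. Values by array are given for the members that passed in any of these fits and for the highest member of each cluster, and the rest are summarised. The fits were tested on simulated data. Arrays have no read depth, and their number limits the precision. Alternatives were quantile scaling, median centring, leaving out dim genes, the replicate number as a block, fewer groups and each array left out. Another background correction was not run, as only processed values were used. The members and gene lists were chosen with earlier results of these data known. Promoter and microRNA sequences are RefSeq's, on GRCm38.p6.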

Additional observations from a re-analysis of the deposited data

Results flagged for a closer look

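The Hoxc6 induction differed between dnBrg1 and the control line in the 15-array fit, by -1.20 ± 0.25 on the log2 scale (SE; limma, adjusted p = 0.00863). It was singled out because the difference between the 2 inductions passed its own test. Hoxc6 read 6.97 and 6.40 repressed and 5.99 and 5.86 induced in dnBrg1. In that fit the control line has 5.70 repressed and 6.08 and 6.21 induced. The difference was -1.27 and -1.14 in the 2 fits without a further induced control array. Those fits kept the single remaining repressed control array and dnBrg1 repressed replicate 1, so they do not test the part of either. Without dnBrg1 repressed replicate 1, the Hoxc6 induction of dnBrg1 in the 12-array fit was -0.47 in place of -0.76. In 17 arrays the difference was -1.07 (adjusted p = 0.27), so the call rests on leaving out the 2 arrays labelled replicate 1 of both control groups.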

How the results depend on the processing

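Of 532 values under other settings, 455 stayed within 1.5 times the count of called genes or on the same side of the threshold in the same direction, 77 moved, and no called Hox gene changed sign under quantile scaling or median centring. The 15-array and 12-array fits and the fits that leave arrays out of them were chosen after seeing the data. Each fit that leaves a group with 1 array assumes that it varies like the other groups. For inductions, where 0 Hox genes passed in 17 arrays, the 15-array fit called 4 in the control line and 5, 1 and 2 in dnBrg1, dnChd4 and dnSnf2h, and 1 for the difference of dnBrg1 from the control; the 12-array fit called 5, 1 and 2 in the dominant-negative lines. With 1 array left out the induction counts ran from 0 to 4 in dnBrg1 and 0 to 1 in dnChd4, the highest without control induced replicate 1, and stayed at 0 in the control line, for dnSnf2h and for every difference of inductions. Against the control line the main counts were 12 in dnBrg1, 4 in dnChd4 and 7 in dnSnf2h. They were 6, 2 and 2 without dim genes, 7, 2 and 2 with only the groups compared, and 6, 0 and 3 over repressed groups alone. The 15-array fit gave 11 in dnChd4 and 11 in dnSnf2h, and quantile scaling gave 7 in dnChd4. With 1 array left out they ran from 7 to 14, 1 to 11 and 3 to 11. Between dnBrg1 and dnChd4 the count of 1 became 2 with quantile scaling, 4 in 15 and in 12 arrays and 0 over repressed groups, and ran from 0 to 4 with 1 array left out. Between dnBrg1 and dnSnf2h the count of 2 became 5 in 15 arrays, 4 in 12 arrays and 1 over repressed groups, and ran from 0 to 3. Between dnChd4 and dnSnf2h it stayed at 0. With the replicate block the counts were 1 in dnChd4 and 4 in dnSnf2h against the control and 0 between dnBrg1 and dnChd4. Whether the replicate numbers pair the samples cannot be told from these values. Between a line's repressed and induced groups, deviations of same-numbered arrays correlated at 0.02 in dnBrg1, 0.14 in dnChd4 and 0.31 in dnSnf2h. In the control line, whose arrays cross their labels, the correlation was -0.74. With a bound of 6 in place of 5, 14 members would be counted as not dim. The cause of these shifts was not tested.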
